A study of Homo sapiens with 18 samples.

Results

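The genes described here are 38 genes of the unfolded protein response and of protein folding in the endoplasmic reticulum (ER). They were taken from the table of 20145 genes by gene symbol, with no threshold on their values, from a list drawn up with earlier results of these data known. All 38 were found and passed the filter on low counts that left 15422 genes for testing. By role they are 9 ER chaperones and co-chaperones, 2 lectin chaperones, 6 genes of disulfide bond formation, 3 stress sensors, 4 transcription factors, 10 genes of ER-associated degradation and 4 genes of translocation and export. The cells were LNCaP, an androgen-responsive line of prostate adenocarcinoma grown with serum. In a study of BRD7 bromodomain inhibitors, they were treated for 72 h and their messenger RNA was sequenced in 18 libraries. The 6 conditions, with 3 libraries each, were the vehicle DMSO, ENZA and P-16 (PB16 in the treatment protocol) at 10 µM, BD98 at 2 µM, 2-77 at 1 µM and ACBI at 0.2 µM, with no other treatment or genetic change named in the labels. ENZA is the usual abbreviation of enzalutamide, an antiandrogen, and the labels name no target for the 4 code-named compounds. Only P-16 and ENZA were given at the same dose. Nothing in the labels says that the 3 libraries of a condition came from separate cultures, so the p-values measure the spread between these libraries only. In bulk RNA, fewer cells of a kind and less RNA per cell cannot be told apart.

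Proteins that enter the secretory pathway fold in the ER, where HSPA5 (BiP), HSP90B1 and lectins hold unfolded chains and protein disulfide isomerases form their disulfide bonds. When unfolded protein builds up, 3 membrane sensors signal: ERN1 (IRE1) splices XBP1 messenger RNA into the form that encodes an active factor, ATF6 is cut in the Golgi to release a transcription factor, and EIF2AK3 (PERK) lowers translation. Spliced XBP1 and ATF6 then raise chaperone and degradation genes, in part through ER stress response elements (ERSE), and prostate epithelium secretes large amounts of protein through the ER. The table holds counts per gene, so the splicing of XBP1 and the activity of the sensors were not measured.

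The promoters of 34 of the 38 genes were found in RefSeq on GRCh38.p14, and the 250 bases before each start were searched on both strands. No window was at hand for PDIA3, SEC24D, DERL3 and DERL1. The ERSE was searched as CCAAT, then 9 bases of any kind, then CCACG. It stood in 7 of 34 windows (20.6%), against 19 of the 14659 windows of genes in the table (0.13%). ERSE-II, searched as ATTGG, 1 base of any kind and CCACG, stood in 3 of 34 windows (8.82%), against 11 of 14659 (0.075%). Either element stood in 10 of 34 windows (29.4%) and in 30 of 14659 (0.205%). The 14659 windows include the 34, which hold 10 of the 30. The core TGACGTGG of the element bound by XBP1 and ATF6 stood in 1 of the 34 windows (2.94%), that of HYOU1, and in 0.703% of all windows, and there it overlaps an ERSE-II. The ERSE contains a CCAAT box and both elements contain CCACG, whose own shares were 76.5% and 67.6% of the 34 windows against 34.7% and 41.3% of all. Such elements are well known in these genes, and a match of letters is a description, not a site in use. The matched stretches of the 10 windows are shown because the ERSE and ERSE-II are the letters through which ATF6 and XBP1 are known to act on these genes. Capitals mark the matched elements, read 5′ to 3′ on the strand of the gene. An element on the opposite strand appears as its reverse complement. In the first HYOU1 line the capitals run over the TGACGTGG core as well as the ERSE-II.
HSPA5 (chr9:125241381-125241419, minus strand): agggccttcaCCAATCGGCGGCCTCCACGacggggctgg
HSP90B1 (chr12:103930216-103930234, plus strand): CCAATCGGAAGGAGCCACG
HSP90B1 (chr12:103930321-103930339, plus strand): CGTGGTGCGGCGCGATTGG
CALR (chr19:12938374-12938412, plus strand): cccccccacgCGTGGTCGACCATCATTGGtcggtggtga
CANX (chr5:179698778-179698796, plus strand): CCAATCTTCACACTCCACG
CRELD2 (chr22:49918544-49918582, plus strand): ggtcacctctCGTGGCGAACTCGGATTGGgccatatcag
ERO1B (chr1:236282173-236282208, minus strand): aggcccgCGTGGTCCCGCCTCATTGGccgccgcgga
XBP1 (chr22:28800603-28800621, minus strand): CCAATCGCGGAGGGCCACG
HYOU1 (chr11:119057370-119057403, minus strand): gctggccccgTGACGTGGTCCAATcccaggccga
HYOU1 (chr11:119057264-119057294, minus strand): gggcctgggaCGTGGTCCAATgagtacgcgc
SDF2L1 (chr22:21642104-21642134, plus strand): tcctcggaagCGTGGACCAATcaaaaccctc
HERPUD1 (chr16:56932015-56932045, plus strand): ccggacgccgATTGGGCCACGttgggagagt

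The 7 genes from HSPA5 to XBP1 hold the ERSE, HSP90B1 with a pair of them, and HYOU1, SDF2L1 and HERPUD1 hold the ERSE-II. The CANX match and both HSP90B1 matches overlap exons annotated in GENCODE v29. By the deposited gene coordinates CANX starts at 179698427, so that its match lies inside the gene. Other RefSeq starts differ from the deposited ones too. The windows of PDIA6 and CREB3L4 lie inside the deposited gene, and those of OS9, PDIA4, SEL1L and XBP1 reach into it. The SEC61A1 window ends at 128051640, while the deposited gene starts at 128052437. An element absent from such a window may still stand before the deposited start. The whole HSPA5 window of 250 bases (chr9:125241344-125241593, minus strand) is given as well, as that gene is the standard reporter of ER stress, with its matched ERSE in capitals.
HSPA5 promoter: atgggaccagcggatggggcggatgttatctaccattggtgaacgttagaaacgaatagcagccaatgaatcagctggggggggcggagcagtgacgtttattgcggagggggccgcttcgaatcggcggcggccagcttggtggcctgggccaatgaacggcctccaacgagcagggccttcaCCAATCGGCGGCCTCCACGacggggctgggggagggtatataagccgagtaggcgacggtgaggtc

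**Figure D1:**
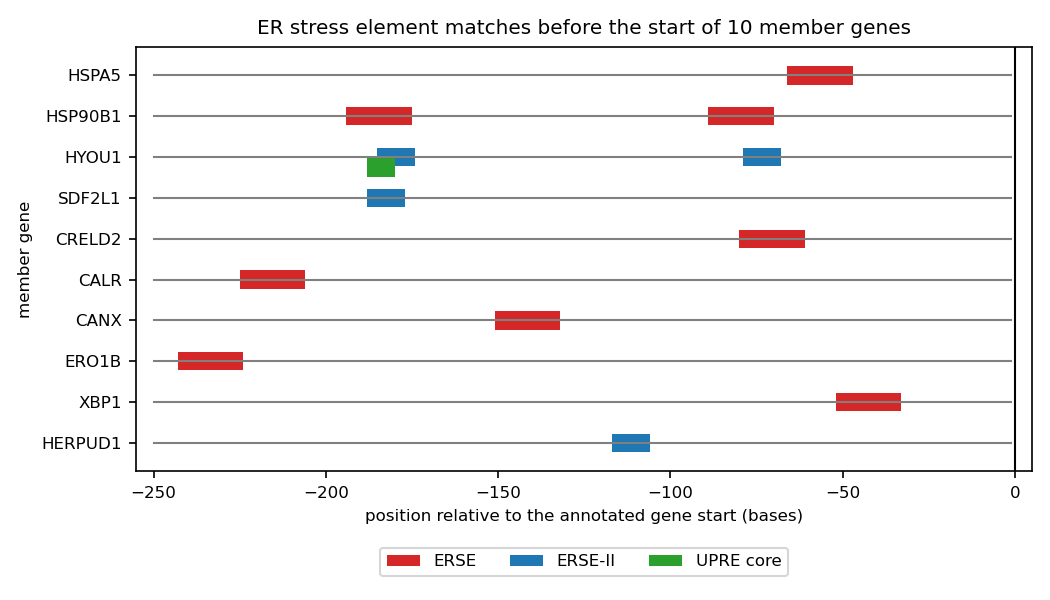
Positions of matched elements in the 250 bases before the RefSeq start of the genes that hold an ERSE or ERSE-II. The x axis is the distance from the start in bases and each row is a gene, with ERSE in red, ERSE-II in blue and the TGACGTGG core (UPRE core) in green. The HSPA5 element lies 66 to 48 bases before the start and the XBP1 element 52 to 34.

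Column totals ran from 16835113 to 36975052 counts, of which the 38 genes took 0.668% to 1.01%. Levels are given as CPM, read counts divided by the library size that TMM factors give and set to a common scale. Differences are given as log2 of the first condition over the second, with a standard error (SE) derived from the test statistic. ACBI replicate 3 stood apart with 8.6% of its counts from ribosomal RNA genes, against 0.639% to 2.09% in the other 17 libraries. The summed level of 7 luminal prostate markers such as KLK3 and KRT8 was 7835 to 7923 CPM with DMSO, and it was lower with each compound, 3105 to 3220.5 with 2-77, 3088 to 3338 with ACBI, 3658 to 3704 with ENZA, 5246 to 5305 with P-16 and 5326 to 5558 with BD98. The part of this shift in the results on the 38 genes was not tested. Of the basal markers only KRT14 and KRT15 were in the table, at a sum of at most 2.15 CPM, and the 4 immune markers in the table summed to at most 7.22 CPM. The 4 neuroendocrine markers in the table, mostly ENO2, summed to 42.4 to 44.9 CPM with DMSO, 115 to 118 with 2-77, 92.3 to 93.4 with P-16, 81.4 to 89.4 with ACBI, 68.8 to 75.4 with BD98 and 55.6 to 61.8 with ENZA, and the part of this was not tested either. The 6 mesenchymal markers in the table summed to 2533 to 2746 CPM with ACBI against 992 to 1013 with DMSO, nearly all of it FN1, and to 632 to 639.5 with 2-77, 541 to 582 with BD98, 538 to 545 with ENZA and 961 to 967 with P-16. The sums follow FN1, and the markers did not move as a set. Of the 5 tested, 1 was higher and 2 lower with ACBI at an adjusted p under 0.05 (60%, against 72% of all genes tested). With 2-77 2 were higher and 1 lower (60% against 40.7%), and with BD98 1 and 2 (60% against 49%). With ENZA 1 was higher and 1 lower (40% against 36.3%), and with P-16 1 and 0 (20% against 24%). The part of these shifts in the results was not tested.

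Per kilobase of exon (union of GENCODE v29 exons), the mean level with DMSO was highest for CALR (593 CPM per kb), P4HB (437), HSP90B1 (346) and HSPA5 (214). The sensors stood far lower, at 12.6 CPM per kb for ATF6, 12.4 for EIF2AK3 and 8.82 for ERN1. XBP1 was the highest of the 4 factors at 132 CPM per kb, followed by CREB3L4 (47), CREB3 (18.8) and CREB3L2 (10.2). ERO1B (2.28) and DERL3 (0.38) were the lowest of the 38. With ACBI the same 4 genes led, CALR (523), P4HB (303), HSP90B1 (165) and HSPA5 (149), and XBP1 stood at 49 CPM per kb. The summed level of the 38 genes was 9964 to 10159 CPM with DMSO, 9966 to 10100.5 with P-16, 9553 to 9865 with ENZA, 9306 to 9348 with 2-77, 8718 to 9093 with BD98 and 7101 to 7240.3 with ACBI. These ranges of 3 libraries overlap only between DMSO and P-16.

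Against DMSO, more of the 38 genes fell than rose with each of the 5 compounds. The 5 contrasts share the DMSO libraries and are given side by side. A gene was called where edgeR's quasi-likelihood test gave an adjusted p under 0.05 over all 15422 genes. With ACBI, 7 genes rose and 26 fell, or 86.8% of the 38, where 72% of all genes tested were called (35.4% higher, 36.6% lower). With 2-77, 6 rose and 24 fell (78.9%; 40.7% of all genes, 20.5% higher and 20.2% lower). With BD98, 3 rose and 26 fell (76.3%; 49% of all genes, 24.5% in each direction). With ENZA, 5 rose and 18 fell (60.5%; 36.3% of all genes, 18.2% higher and 18.1% lower). With P-16, 3 rose and 12 fell (39.5%; 24% of all genes, 12.4% higher and 11.6% lower). The median log2 difference of the 38 genes was -0.41 with ACBI, -0.22 with BD98, -0.20 with 2-77, -0.13 with ENZA and -0.04 with P-16, where the median of all genes tested lay between -0.01 and 0.00 in each contrast. At least a 2-fold change was seen in 5 of the 38 genes with ACBI, in 2 with BD98 and in none with the other 3 compounds.

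The counts of falls kept within 1.5 times their value in every alternative run. So did the 7 rises with ACBI, which were 7 to 8 with each library left out. The small counts of rises with the other compounds did not. The 6 rises with 2-77 were 3 without DMSO replicate 3. The 3 rises with BD98 were 5 with library totals in place of TMM factors, and 1 without DMSO replicate 1, without DMSO replicate 3 or without BD98 replicate 2. The 3 rises with P-16 were 5 in a fit of those groups alone or without ACBI replicate 3. The 5 rises with ENZA were 3 without DMSO replicate 3 or ENZA replicate 1, and 2 without ENZA replicate 3. With library totals the share of higher calls among all genes called with BD98 moved from 50% to 61.8%.

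**Figure D2:**
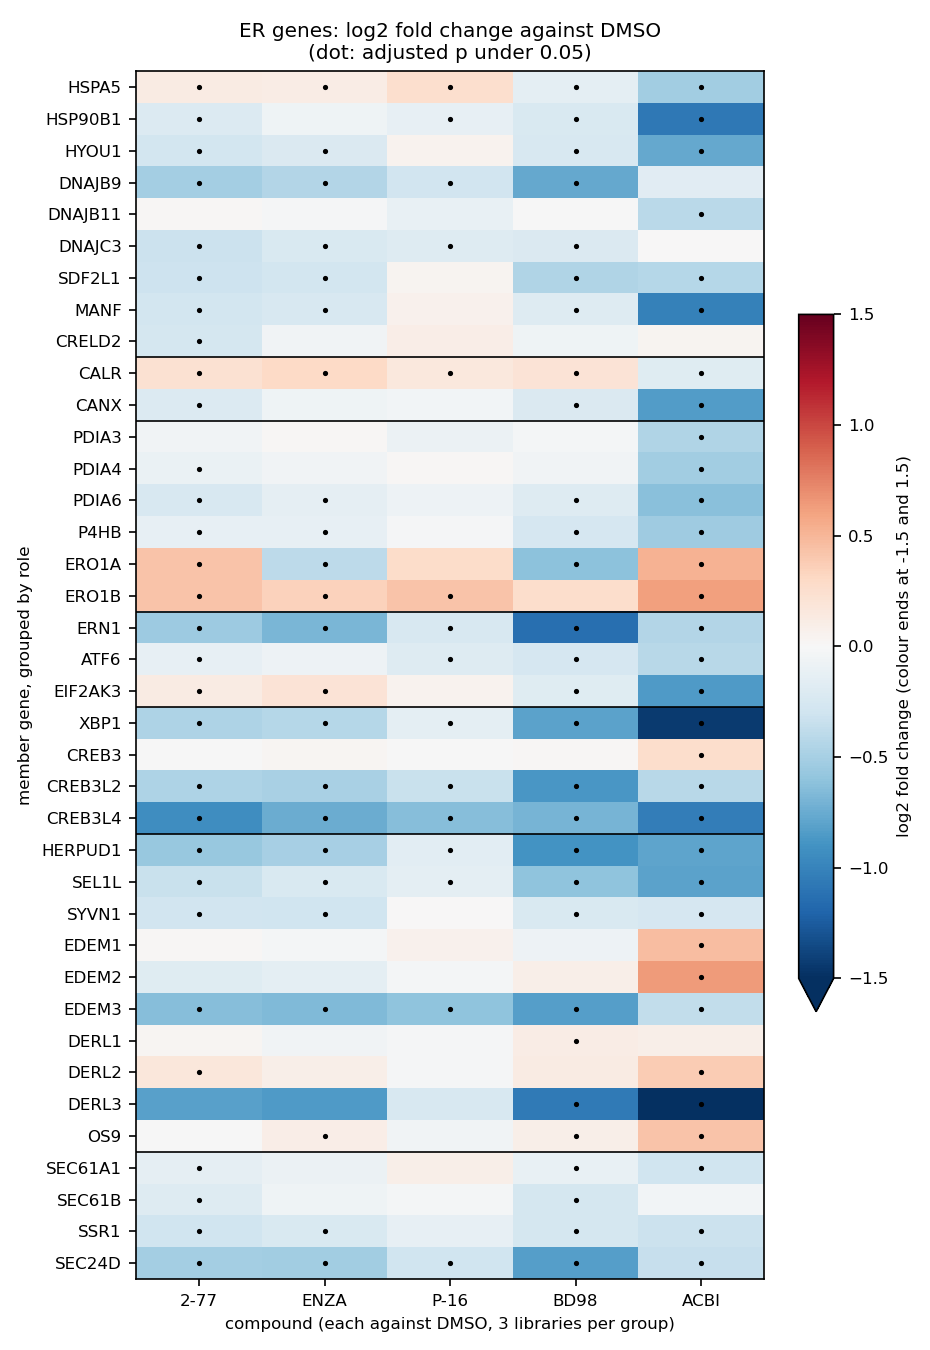
Log2 difference of each compound from DMSO for the 38 genes, ordered by role; the colour scale runs from lower (blue) to higher (red) and a dot marks an adjusted p under 0.05. XBP1 with ACBI (-1.43) and ERN1 with BD98 (-1.13) are among the deepest falls, and the degradation genes EDEM2 (0.64) and OS9 (0.43) rose with ACBI.

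Among the 9 chaperones and co-chaperones, HSPA5, the main ER chaperone, rose with 3 compounds and fell with 2. HSPA5 (chr9:125234853-125241343) stood at 835, 833 and 841 CPM in the 3 DMSO libraries. It was higher with 2-77 (915, 914 and 901), ENZA (889, 895 and 921) and P-16 (1002, 994 and 987). It was lower with BD98 (728, 760.2 and 782) and ACBI (566, 584 and 597). No library of a compound overlapped those of DMSO. The log2 differences were 0.25 ± 0.033 (SE, n = 3 and 3, adjusted p = 9.3e-07) with P-16, 0.12 ± 0.033 (0.00369) with 2-77 and 0.11 ± 0.033 (0.00982) with ENZA. With BD98 the difference was -0.14 ± 0.033 (adjusted p = 0.000573) and with ACBI -0.52 ± 0.033 (1.28e-14). The call with BD98 was lost with library totals (adjusted p = 0.0914), and that with ENZA without ENZA replicate 3 (adjusted p = 0.057).

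HSP90B1 (chr12:103930410-103947926), the ER form of HSP90, fell with 4 compounds. Its level was 1173, 1189.6 and 1120.5 CPM with DMSO and 525, 542 and 591 with ACBI, 2.1-fold lower (log2 -1.07 ± 0.038, adjusted p = 9.92e-21). It stood at 1022, 987 and 1007 CPM with 2-77, 966, 1006 and 998 with BD98, 1074, 1048 and 1064 with P-16 and 1088, 1101 and 1135 with ENZA. The ACBI libraries were far below all others, and the ENZA libraries overlapped DMSO. It fell with BD98 (-0.23 ± 0.038), 2-77 (-0.21 ± 0.038) and P-16 (-0.13 ± 0.038), and did not pass with ENZA (-0.07, 95% interval -0.14 to 0.01) except in a fit of those groups alone (adjusted p = 0.0474). The call with P-16 was lost without DMSO replicate 2 (adjusted p = 0.0779) and without P-16 replicate 2 (0.0553). A copy of the gene, HSP90B2P, is listed with 4461 counts in all, so that reads could be split between them.

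The co-chaperones DNAJB9 and DNAJC3 fell with 4 compounds, and DNAJB11 with ACBI. DNAJB9 (ERdj4), which dampens ERN1, fell with BD98 (-0.76 ± 0.09), 2-77 (-0.51 ± 0.087), ENZA (-0.44 ± 0.086) and P-16 (-0.28 ± 0.087), and with ACBI its difference of -0.17 did not pass (95% interval -0.34 to 0.01). Without ACBI replicate 3, the library rich in ribosomal RNA, DNAJB9 fell with ACBI too (adjusted p = 0.0103), as it did with library totals (0.0235). DNAJC3 (P58IPK), an inhibitor of EIF2AK3, fell with 2-77 (-0.32 ± 0.064), ENZA (-0.23), BD98 (-0.22) and P-16 (-0.19), and stood at 0.01 with ACBI. DNAJB11 (ERdj3), a co-chaperone of HSPA5, fell with ACBI (-0.40 ± 0.06, adjusted p = 9.09e-07) and passed with no other compound (-0.11 to 0.02). The P-16 call was lost for DNAJB9 without DMSO replicate 1 (adjusted p = 0.06), without DMSO replicate 3 (0.0552), without P-16 replicate 2 (0.0806) and without P-16 replicate 3 (0.087). For DNAJC3 it was lost without DMSO replicate 1 (adjusted p = 0.0691), without DMSO replicate 2 (0.137), without P-16 replicate 1 (0.0729) and without P-16 replicate 3 (0.138). CRELD2, a secreted ER stress protein, fell with 2-77 (-0.27 ± 0.056) and lay between -0.07 and 0.10 with the other 4, which did not pass.

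MANF, a secreted factor that binds HSPA5, and HYOU1, which exchanges its nucleotide, fell most with ACBI. MANF fell with ACBI from 113 ± 3.64 CPM (SD, n = 3) to 55.8 ± 2.44 (log2 -1.01 ± 0.045), with smaller falls with 2-77 (-0.28), ENZA (-0.24) and BD98 (-0.19). HYOU1 fell with ACBI from 433 ± 10.3 CPM to 254 ± 14.8 (log2 -0.77 ± 0.038), and with 2-77 (-0.28), BD98 (-0.24) and ENZA (-0.21). SDF2L1, a partner of DNAJB11, fell with BD98 (-0.45), ACBI (-0.42), 2-77 (-0.31) and ENZA (-0.28). With P-16 none of these 3 passed (MANF 0.07, HYOU1 0.05, SDF2L1 0.04).

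Of the 2 lectin chaperones, which hold glycoproteins through the quality control cycle, CALR rose with 4 compounds and CANX fell with 3. CALR (chr19:12938609-12944489), the soluble calreticulin, stood at 1151, 1128 and 1109 CPM with DMSO and rose with 4 compounds, to 1367, 1386 and 1427 with ENZA, 1345, 1347 and 1291 with 2-77, 1263, 1278 and 1369.7 with BD98 and 1268, 1239.6 and 1261 with P-16. With ACBI it was 973, 1019 and 994. Every library of those 4 compounds lay above DMSO and every ACBI library below. The log2 differences were 0.30 ± 0.034 (adjusted p = 2.31e-08), 0.23 ± 0.034 (1.94e-06), 0.21 ± 0.034 (9.6e-06), 0.15 ± 0.034 (0.00114) and, with ACBI, -0.18 ± 0.034 (2.32e-05). CANX, the membrane-bound calnexin, rose with none: it fell with ACBI (-0.83 ± 0.043), BD98 (-0.22) and 2-77 (-0.20), and stood at -0.06 with ENZA and -0.04 with P-16. The searched windows of CALR and CANX both hold the ERSE printed for them, and the CANX match overlaps an annotated exon.

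Of the 6 genes of disulfide bond formation, the 4 isomerases fell with ACBI while the 2 oxidases rose. The isomerases P4HB (-0.53 ± 0.035), PDIA4 (-0.53 ± 0.035), PDIA6 (-0.62 ± 0.035) and PDIA3 (-0.45 ± 0.039) form and rearrange disulfide bonds. With BD98, P4HB (-0.25) and PDIA6 (-0.19) fell too, and with P-16 none of the 4 passed. With 2-77, P4HB, PDIA4 and PDIA6 fell by 0.10 to 0.25 on the log2 scale. With ENZA, P4HB (-0.12) and PDIA6 (-0.14) did. The call of PDIA4 with 2-77 was lost with library totals (adjusted p = 0.0867), without DMSO replicate 2 (0.0584) and without 2-77 replicate 2 (0.0864), and that of P4HB with ENZA with library totals (adjusted p = 0.0524) and without ENZA replicate 1 (0.0532). PDIA3 with P-16 (-0.09) passed only in a fit of those groups alone (0.0156) and without ACBI replicate 3 (0.0483). PDIA3 shares sequence with the copy PDIA3P1, which is listed with 70621 counts and was lower with ACBI as well (-0.44).

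ERO1A (chr14:52639915-52695558), the oxidase that recharges the isomerases and is also known as a hypoxia-induced gene, rose with 2 compounds and fell with 2. It stood at 38.5, 41.2 and 35.1 CPM with DMSO. It was higher with ACBI (48.9, 51.8 and 64.1) and 2-77 (47, 51.2 and 55.9), and lower with ENZA (26.6, 29.8 and 30.6) and BD98 (24.6, 27.3 and 23.4). The P-16 libraries (50.8, 44.3 and 43.4) lay above DMSO but did not pass (log2 0.28, 95% interval 0.06 to 0.49). The other log2 differences were 0.52 ± 0.099 (adjusted p = 0.000117), 0.42 ± 0.099 (0.00208), -0.40 ± 0.1 (0.00564) and -0.61 ± 0.11 (0.000102). With P-16 it passed with DESeq2 (adjusted p = 0.0277), with library totals (0.0249), in the fit of only those groups (0.00122), without DMSO replicate 2 (0.0474), without 2-77 replicate 1 (0.0441), without 2-77 replicate 3 (0.0449), without ACBI replicate 1 (0.0329) and without ACBI replicate 3 (0.00596).

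Its paralog ERO1B, the less expressed of the pair, lay above DMSO in every library of 2-77, ACBI, P-16 and ENZA. ERO1B had 13.6, 12.3 and 10.7 CPM with DMSO, 15.2, 15.9 and 18.2 with 2-77, 15.8, 14.9 and 15.8 with ENZA and 16.1, 17.4 and 15.4 with P-16. With ACBI it had 16.9, 17.8 and 21.3, and with BD98 14.4, 18.4 and 11.9, overlapping DMSO. The log2 differences were 0.62 ± 0.12 (adjusted p = 0.000136), 0.43 ± 0.13 (0.00814), 0.42 ± 0.13 (0.0183) and 0.34 ± 0.13 (0.0371), and 0.27 with BD98 did not pass. The ERO1B call was lost with 2-77 without DMSO replicate 3 (adjusted p = 0.0578), and with P-16 without DMSO replicate 3 (adjusted p = 0.0969) and without P-16 replicate 2 (0.078). With ENZA it was lost with the replicate block (adjusted p = 0.0546), without DMSO replicate 2 (0.0754), without DMSO replicate 3 (0.179), without ENZA replicate 1 (0.0868), without ENZA replicate 2 (0.0564) and without ENZA replicate 3 (0.0873). With BD98 it was gained with library totals (adjusted p = 0.023) and without BD98 replicate 3 (0.00609).

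Of the 3 sensors, ERN1 fell with each compound and ATF6 with 4, while EIF2AK3 rose with 2 and fell with 2. ERN1 (chr17:64039142-64130144), the kinase and nuclease that splices XBP1, had its largest fall with BD98. It stood at 83.8, 87.1 and 88.3 CPM with DMSO and 38.2, 41.4 and 39.4 with BD98, a 2.18-fold fall (log2 -1.13 ± 0.046, adjusted p = 2.73e-18). It was at 53.7, 54.3 and 53.4 with ENZA, 58.7, 59.1 and 60 with 2-77, 65.3, 64.4 and 60.8 with ACBI and 71.7, 73.2 and 74.5 with P-16. No group's libraries overlapped those of another group. The log2 differences were -0.68 ± 0.045 with ENZA, -0.55 ± 0.044 with 2-77, -0.44 ± 0.044 with ACBI and -0.24 ± 0.044 with P-16 (adjusted p at most 0.000125).

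EIF2AK3 (chr2:88556740-88627464), which phosphorylates the translation factor eIF2α, fell with ACBI from 59.9, 62.6 and 61.7 CPM to 32.1, 34.4 and 35.8 (log2 -0.85 ± 0.049, adjusted p = 1.64e-15). With BD98 it was 53.5, 56.8 and 52.2 CPM (-0.19 ± 0.048, adjusted p = 0.00188). It was above DMSO with ENZA (70.9, 70.9 and 70.3) and 2-77 (66.8, 65.7 and 68.2), and at 63.8, 64.6 and 62.7 with P-16. The sensor rose with ENZA (0.20 ± 0.047, adjusted p = 0.000901) and 2-77 (0.12 ± 0.047, 0.0359), and did not pass with P-16 (0.05). The call with 2-77 was lost with DESeq2 (adjusted p = 0.0646), with RLE factors (0.0539), without DMSO replicate 1 (0.122), without DMSO replicate 3 (0.0672), without 2-77 replicate 1 (0.0729) and without 2-77 replicate 3 (0.093). An opposite-strand gene, LOC101928371, overlaps EIF2AK3 with only 325 counts in all.

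ATF6 (chr1:161766320-161964070), the sensor that is itself a factor once cut, stood at 92.8, 98.8 and 92.1 CPM with DMSO, 68.3, 71.1 and 73 with ACBI and 77.3, 78.9 and 82.6 with BD98. It was at 84.1, 82.4 and 81.5 with P-16, 88.1, 84.2 and 88.1 with 2-77 and 87.7, 90.9 and 90.1 with ENZA, all below DMSO. ATF6 fell with ACBI (-0.42 ± 0.044, adjusted p = 9.78e-10), BD98 (-0.25 ± 0.044, 2.49e-05), P-16 (-0.19 ± 0.044, 0.00135) and 2-77 (-0.12 ± 0.043, 0.023). With ENZA its difference of -0.08 did not pass (95% interval -0.17 to 0.01). The call with 2-77 was lost with library totals (adjusted p = 0.0641), without DMSO replicate 2 (0.149) and without 2-77 replicate 2 (0.108).

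Of the 4 transcription factors, XBP1, CREB3L2 and CREB3L4 fell with each compound and CREB3 did not. XBP1 (chr22:28794560-28800572), which drives chaperone and degradation genes once spliced, stood at 282, 268 and 259 CPM with DMSO and 100.2, 98.4 and 101 with ACBI, 2.7-fold lower (log2 -1.43 ± 0.037, adjusted p = 2.73e-24). It was at 151, 157 and 156 with BD98, 199, 199 and 189 with 2-77, 196, 200.5 and 204 with ENZA and 249, 242 and 240.0 with P-16. All libraries of the 5 compounds lay below DMSO, P-16 closest. The log2 differences were -0.81 ± 0.036 (adjusted p = 1.95e-17), -0.46 ± 0.035 (6.99e-12), -0.43 ± 0.035 (3.53e-11) and -0.15 ± 0.035 (0.00243). Total XBP1 does not tell how much of it was spliced.

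CREB3L4 (chr1:153967902-153974358), a membrane-anchored factor known for high levels in prostate, fell from 95.9, 92.7 and 100.02 CPM with DMSO to 48.1, 48.7 and 43.9 with ACBI and 50.4, 50.9 and 49.8 with 2-77. With ENZA it was 59.7, 56.2 and 56.6, with BD98 59.4, 61.1 and 58.2 and with P-16 61.3, 65.6 and 59.2. Its lowest DMSO library was above every treated library. The log2 differences were -1.04 ± 0.05, -0.93 ± 0.049, -0.75 ± 0.049, -0.69 ± 0.049 and -0.63 ± 0.049 in that order (adjusted p at most 2.8e-11). Its fall was the largest that passed among the 38 genes for 2-77, ENZA and P-16. Its ends overlap JTB and SLC39A1 on the opposite strand, by 90 and 283 bases, and whether the counting used the strand is not given in the sources used here.

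CREB3L2 (chr7:137874979-138002086), which drives genes of vesicle transport, had 87.9, 88.4 and 88.8 CPM with DMSO and fell most with BD98 (48.2, 48.1 and 48.6, log2 -0.87 ± 0.045, adjusted p = 6.91e-16). It was at 65, 60.9 and 63.2 with ENZA, 64.7, 64 and 63.8 with 2-77, 68.8, 67.3 and 63.3 with ACBI and 72.3, 70.7 and 67.7 with P-16. The differences were -0.49, -0.46, -0.41 and -0.33, and no group overlapped DMSO. CREB3, the ubiquitous member of the family, rose with ACBI (0.26 ± 0.074, adjusted p = 0.0025) and lay between -0.01 and 0.03 with the other 4, none of which passed.

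**Figure D3:**
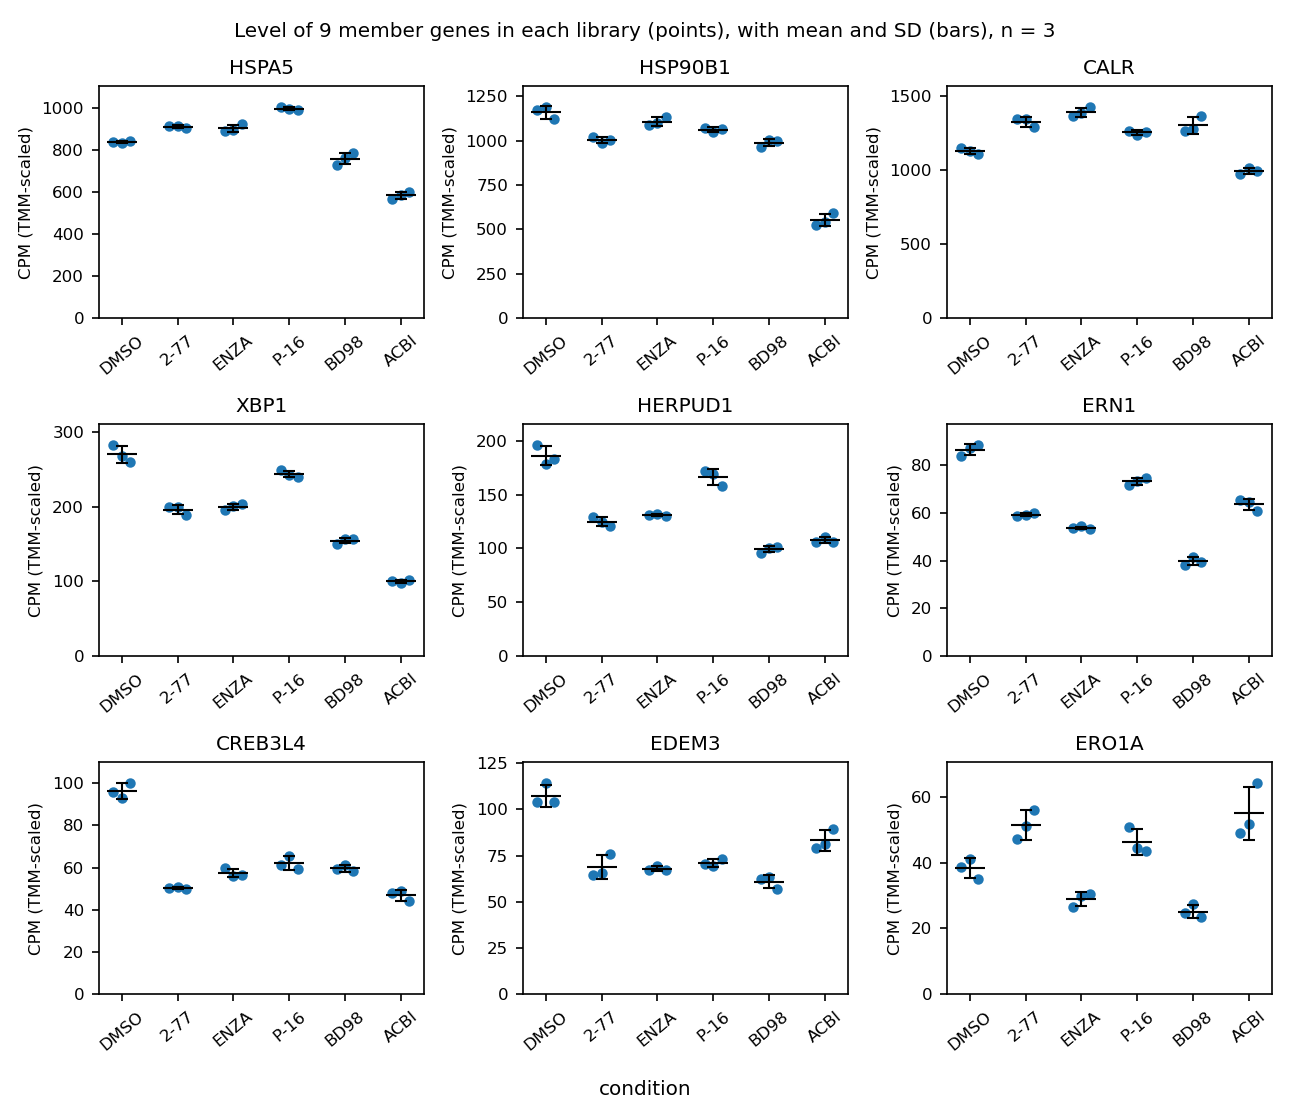
Level in CPM (y axis) of selected members in each of the 18 libraries, by condition (x axis); points are libraries, and bars are the mean and SD of 3. The 3 XBP1 libraries with ACBI (100.2, 98.4 and 101 CPM) lie below all others, and HSPA5 with P-16 (1002, 994 and 987 CPM) lies above all others.

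Among the 10 genes of ER-associated degradation, which carry misfolded protein out to the proteasome, HERPUD1, SEL1L and EDEM3 fell with each compound, while EDEM1, EDEM2, OS9 and DERL2 rose with ACBI. HERPUD1 (chr16:56932142-56944864), a scaffold of the ligase and a standard ER stress gene, stood at 196, 179 and 183 CPM with DMSO, 96.2, 101 and 101 with BD98 and 106, 111 and 106 with ACBI. It was at 129, 125 and 121 with 2-77, 131, 132 and 130.4 with ENZA and 172, 169 and 158 with P-16. No library overlapped DMSO. HERPUD1 fell with BD98 (-0.90 ± 0.043, adjusted p = 8.94e-17), ACBI (-0.79 ± 0.042, 2.96e-16), 2-77 (-0.57 ± 0.042, 2.99e-12), ENZA (-0.50 ± 0.042, 5.64e-11) and P-16 (-0.16 ± 0.042, 0.00506). The call with P-16 was lost without DMSO replicate 1 (adjusted p = 0.0558) and without P-16 replicate 3 (0.0566).

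SEL1L (chr14:81471547-81533861), the adaptor of the ligase SYVN1, had 264, 269 and 256 CPM with DMSO, 148, 149 and 156 with ACBI and 172, 181 and 167 with BD98. It had 201, 201 and 223 with 2-77, 225, 226 and 225 with ENZA and 240.2, 232 and 239 with P-16. Every treated library was below DMSO, ACBI and BD98 furthest. The differences were -0.80 ± 0.04 with ACBI, -0.60 ± 0.04 with BD98, -0.34 ± 0.039 with 2-77, -0.22 ± 0.039 with ENZA and -0.15 ± 0.039 with P-16 (adjusted p at most 0.0056). SYVN1 (HRD1), the ligase itself, fell with ENZA (-0.30), 2-77 (-0.28), ACBI (-0.25) and BD98 (-0.23), and stood at 0.01 with P-16 (95% interval -0.11 to 0.12).

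Of the 3 EDEM genes, which trim mannose from glycoproteins marked for degradation, EDEM3 fell with each compound and EDEM1 and EDEM2 rose with ACBI. EDEM3 (chr1:184690238-184754858) had 104, 114 and 104 CPM with DMSO, 62.2, 63.3 and 57 with BD98, 64.7, 65.6 and 76 with 2-77, 67.1, 69.4 and 67.3 with ENZA, 70.4, 69.2 and 73.2 with P-16 and 78.9, 81.3 and 89.5 with ACBI. The differences were -0.82 ± 0.059, -0.64 ± 0.058, -0.66 ± 0.058, -0.60 ± 0.059 and -0.37 ± 0.058, so that the fall with ACBI was the smallest of the 5 point estimates. EDEM2 (chr20:35115364-35147336) stood at 16.2, 16.7 and 19.6 CPM with DMSO and 27.6, 27.9 and 26.7 with ACBI, a rise of 0.64 ± 0.076 (adjusted p = 1.2e-08). With 2-77 it had 15.7, 15.2 and 15.5, with ENZA 14.6, 16.1 and 16.7, with P-16 16.9, 16.8 and 18 and with BD98 18.8, 17 and 19.8, and none of these passed, though the 2-77 libraries lay below DMSO and passed without DMSO replicate 1 (adjusted p = 0.0378). The readthrough gene MMP24-AS1-EDEM2 covers EDEM2 on the same strand with 1421 counts against 7959. EDEM1 rose with ACBI (0.46 ± 0.045, adjusted p = 2.29e-10) and lay between -0.08 and 0.06 with the others, where no call was made.

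OS9 (chr12:57693955-57721557), a lectin that hands glycoproteins to the ligase, had 222, 226 and 222 CPM with DMSO and rose with ACBI to 304, 297 and 301 (log2 0.43 ± 0.032, adjusted p = 7.37e-13). It had 232, 241 and 242 with BD98, 242, 233 and 240.1 with ENZA, 224, 222 and 221 with 2-77 and 213, 218 and 215 with P-16. The ACBI libraries were well above the rest, and those of BD98 and ENZA slightly above DMSO (0.09 and 0.09). The BD98 call was lost without DMSO replicate 1 (adjusted p = 0.0504), without DMSO replicate 3 (0.0574), without BD98 replicate 2 (0.0909) and without BD98 replicate 3 (0.0765), and the ENZA call without DMSO replicate 1 (adjusted p = 0.0655), without DMSO replicate 3 (0.068), without ENZA replicate 1 (0.085) and without ENZA replicate 3 (0.0679).

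The 3 derlins form part of the exit channel. DERL2 rose with ACBI (0.38 ± 0.053) and 2-77 (0.16 ± 0.053), the latter lost without DMSO replicate 3 (adjusted p = 0.0675). DERL2 with BD98 (0.12) passed only with library totals (0.00661). DERL1 had 86.7, 89.2 and 89.9 CPM with DMSO, 94, 99.3 and 93.5 with BD98, 92.4, 96.9 and 93.5 with ACBI, 89, 88.2 and 93.6 with 2-77, 82.4, 85.3 and 88.3 with ENZA and 90.5, 85.9 and 85.9 with P-16. Its level differed little between conditions. DERL1 rose with BD98 by 0.11 ± 0.043 (adjusted p = 0.0398), a call lost in 10 alternatives, with DESeq2 (adjusted p = 0.0717), with RLE factors (0.0626), without the filter (0.0573), with the stricter filter (0.0701), without ribosomal RNA genes (0.0618), without DMSO replicate 1 (0.123), without DMSO replicate 2 (0.0693), without DMSO replicate 3 (0.0525), without BD98 replicate 1 (0.0662) and without BD98 replicate 2 (0.218). With ACBI it did not pass (0.09), except without ribosomal RNA genes (adjusted p = 0.0396), without ACBI replicate 1 (0.0481), without ACBI replicate 3 (0.0447), without BD98 replicate 1 (0.0459) and without BD98 replicate 2 (0.0411). DERL3 was barely detected, at 23, 24 and 28 counts with DMSO, 6, 6 and 3 with ACBI and 24, 9 and 9 with BD98. It fell with ACBI (-2.59 ± 0.44, adjusted p = 6.84e-06) and BD98 (-1.06 ± 0.37, 0.019), the latter lost without BD98 replicate 2 (adjusted p = 0.0516) and without BD98 replicate 3 (0.162). DERL3 had 0.584, 1.08 and 0.528 CPM with 2-77, 0.705, 0.732 and 0.649 with ENZA and 0.773, 1.39 and 1.06 with P-16, which did not pass. With 2-77 it passed in the fit of only those groups (adjusted p = 0.0491), without 2-77 replicate 2 (0.0215) and without BD98 replicate 1 (0.0473), and with ENZA with the stricter filter (adjusted p = 0.0464), in the fit of only those groups (0.0222), without BD98 replicate 1 (0.0414) and without BD98 replicate 3 (0.0446). It overlaps SMARCB1 on the opposite strand over 3507 bases, where SMARCB1 has 38423 counts in all and DERL3 313.

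In translocation and export, SEC24D, a cargo adaptor of COPII vesicles that bud from the ER, showed the largest falls. It fell from 59.7 ± 2.44 CPM (SD, n = 3) to 33.6 ± 1.81 with BD98 (log2 -0.83 ± 0.056, adjusted p = 4.37e-13), and with ENZA (-0.52), 2-77 (-0.51), ACBI (-0.35) and P-16 (-0.29). SEC61A1, the pore of the translocon, fell with ACBI (-0.30), 2-77 (-0.14) and BD98 (-0.11). RUVBL1 overlaps SEC61A1 on the opposite strand over 6899 bases, with 49753 counts in all against 277078. The SEC61A1 call with BD98 was lost with library totals (adjusted p = 0.505), without DMSO replicate 1 (0.072), without DMSO replicate 3 (0.0679) and without BD98 replicate 1 (0.0735). With P-16 (0.09) and ENZA (-0.09) SEC61A1 did not pass. It did so with P-16 in the fit of only those groups (adjusted p = 0.0163) and without ACBI replicate 3 (0.0223), and with ENZA with DESeq2 (adjusted p = 0.035), in the fit of only those groups (0.012) and without ACBI replicate 3 (0.0208). SEC61B, the small subunit, fell with BD98 (-0.26) and 2-77 (-0.20). SSR1, of the translocon-associated complex, fell with ACBI (-0.33), 2-77 (-0.30), BD98 (-0.27) and ENZA (-0.23). With P-16 SSR1 (-0.12) passed in the fit of only those groups (adjusted p = 0.00317) and without 2-77 replicate 3 (0.0443).

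Other genes of the same compartments were listed from textbook roles outside the 38. Of all genes tested, 40.7% were called with 2-77, 72% with ACBI, 49% with BD98, 24% with P-16 and 36.3% with ENZA, in near equal parts up and down. Of 24 further folding enzymes, 1 rose and 18 fell with 2-77, 6 and 13 with ACBI, 1 and 14 with BD98, 0 and 12 with P-16 and 2 and 17 with ENZA. The shares called were 79.2%, 79.2%, 62.5%, 50% and 79.2% in that order. With ACBI the largest falls were in the prolyl isomerases FKBP7 (-1.68) and FKBP11 (-1.52), and the largest rises in the HSPA5 exchange factor SIL1 (0.74) and the isomerase PDIA5 (0.61). Of 24 translocon, signal peptidase and glycosylation genes, 0 rose and 13 fell with 2-77, 5 and 16 with ACBI, 0 and 13 with BD98, 0 and 7 with P-16 and 0 and 11 with ENZA. Their shares called were 54.2%, 87.5%, 54.2%, 29.2% and 45.8%. The ACBI extremes were SRPRB (-0.84), a receptor subunit for signal recognition, and the glycosyltransferase STT3A (-0.68) on the low side, and the signal peptidase subunit SEC11C (0.74) and SEC62 (0.35) on the high side.

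Of 20 further degradation genes, 10 rose and 4 fell with ACBI (70% called, near the 72% of all genes, of which 35.4% were higher and 36.6% lower), with the ligases RNF139 (0.83) and RNF5 (0.71) highest and SELENOS (-0.31) and the conjugating enzyme UBE2G2 (-0.27) lowest. With the other compounds 2 rose and 4 fell (2-77, 30% called), 7 and 5 (BD98, 60%), 3 and 3 (P-16, 30%) and 3 and 4 (ENZA, 35%). Of 16 COPII and retrieval genes, 10 rose and 5 fell with ACBI (93.8% called). With 2-77 0 rose and 7 fell (43.8%), with BD98 2 and 5 (43.8%), with P-16 0 and 3 (18.8%) and with ENZA 0 and 8 (50%). The COPII coat genes SEC24C (0.55) and SEC24B (0.48) rose with ACBI while their relative SEC24D fell, and the retrieval receptor KDELR3 (-1.10) and MCFD2 (-0.34) fell. Of 7 activation genes tested, 3 rose and 3 fell with ACBI, among them RTCB (0.28), the ligase that completes XBP1 splicing, ATF6B (0.23) and TRAF2 (-0.36). With 2-77 2 rose and 1 fell, with BD98 3 and 1, with P-16 2 and 1 and with ENZA 0 and 2. Of these 7 genes, 85.7% were called with ACBI, 42.9% with 2-77, 57.1% with BD98, 42.9% with P-16 and 28.6% with ENZA. CREB3L1, a relative of CREB3L2, had 38 counts over the 3 DMSO libraries and 0 with ACBI, at least 15.5-fold lower on a floor of 3 counts over the group. It was near the floor elsewhere too, with 3, 5 and 0 counts with ENZA and 4, 12 and 3 with 2-77. With BD98 it had 9, 6 and 8 counts, and with P-16 9, 10 and 10. Of 12 genes of the PERK and ATF4 branch, 0 rose with ACBI, BD98, ENZA and 2-77, where 11, 11, 11 and 10 fell. With P-16 2 rose and 7 fell. The shares called were 91.7% with ACBI, BD98 and ENZA, 83.3% with 2-77 and 75% with P-16. Of all genes tested, 72%, 49%, 36.3%, 40.7% and 24% were called with ACBI, BD98, ENZA, 2-77 and P-16. The median log2 differences of the 12 were -1.36, -1.54, -0.63, -0.39 and -0.13 in that order, and the deepest with ACBI was -2.88.

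ACBI at 0.2 µM and BD98 at 2 µM differed in most of the 38 genes, in both directions. The doses differ, so the values compare these 2 treatments only. Of the 38 genes, 15 were higher and 18 lower with ACBI (86.8%, where 69.6% of all genes were called, 33.4% higher and 36.2% lower). Of the 9 chaperones, 5 were lower and 2 higher with ACBI. The lower ones included HSP90B1 at 525, 542 and 591 against 966, 1006 and 998 CPM with BD98 (log2 -0.84 ± 0.038, adjusted p = 3.85e-18), MANF (-0.82 ± 0.045) and HSPA5 (-0.38 ± 0.033). So were XBP1 (-0.63 ± 0.037), EIF2AK3 (-0.67 ± 0.049), CANX (-0.62) and all 4 isomerases (-0.48 to -0.28). DERL3 had the largest difference (-1.53 ± 0.49), on few counts, and the call was lost without BD98 replicate 1 (adjusted p = 0.151).

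The genes higher with ACBI than with BD98 included ERO1A, at 48.9, 51.8 and 64.1 against 24.6, 27.3 and 23.4 CPM (log2 1.14 ± 0.1, 2.2-fold, adjusted p = 9.94e-09). ERN1 (0.68 ± 0.046) and DNAJB9 (0.59 ± 0.089) followed, then EDEM2 (0.56), EDEM1 (0.54), SEC24D (0.49), CREB3L2 (0.46), EDEM3 (0.46) and OS9 (0.34). No library of the 2 conditions overlapped for these genes, whereas the called differences of CREB3 (0.24) and ERO1B (0.35) came with overlapping libraries. Library totals in place of TMM factors shifted the median of all genes by -0.104 here and moved the share of higher calls from 48% to 38.8%. Under them the HERPUD1 difference went from 0.11 to 0.01 (adjusted p = 0.857) and its call was lost, as were those of CREB3 (adjusted p = 0.114), DNAJC3 (0.0814) and ERO1B (0.0585). HERPUD1 was also lost in the fit of only those groups (0.0538) and without ACBI replicate 2 (0.0843), and ERO1B in the fit of only those groups (0.0579), without ACBI replicate 3 (0.0573) and without BD98 replicate 3 (0.123). The SSR1 (-0.06) and DERL1 (-0.02) differences did not pass except with library totals (adjusted p = 0.0049 and 0.0266). CRELD2 (0.10) passed without ribosomal RNA genes (adjusted p = 0.0418), without ACBI replicate 3 (0.0365) and without BD98 replicate 1 (0.0238). SDF2L1 (0.03, 95% interval -0.11 to 0.17) and SYVN1 (-0.02, -0.14 to 0.10) did not pass either.

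**Figure D4:**
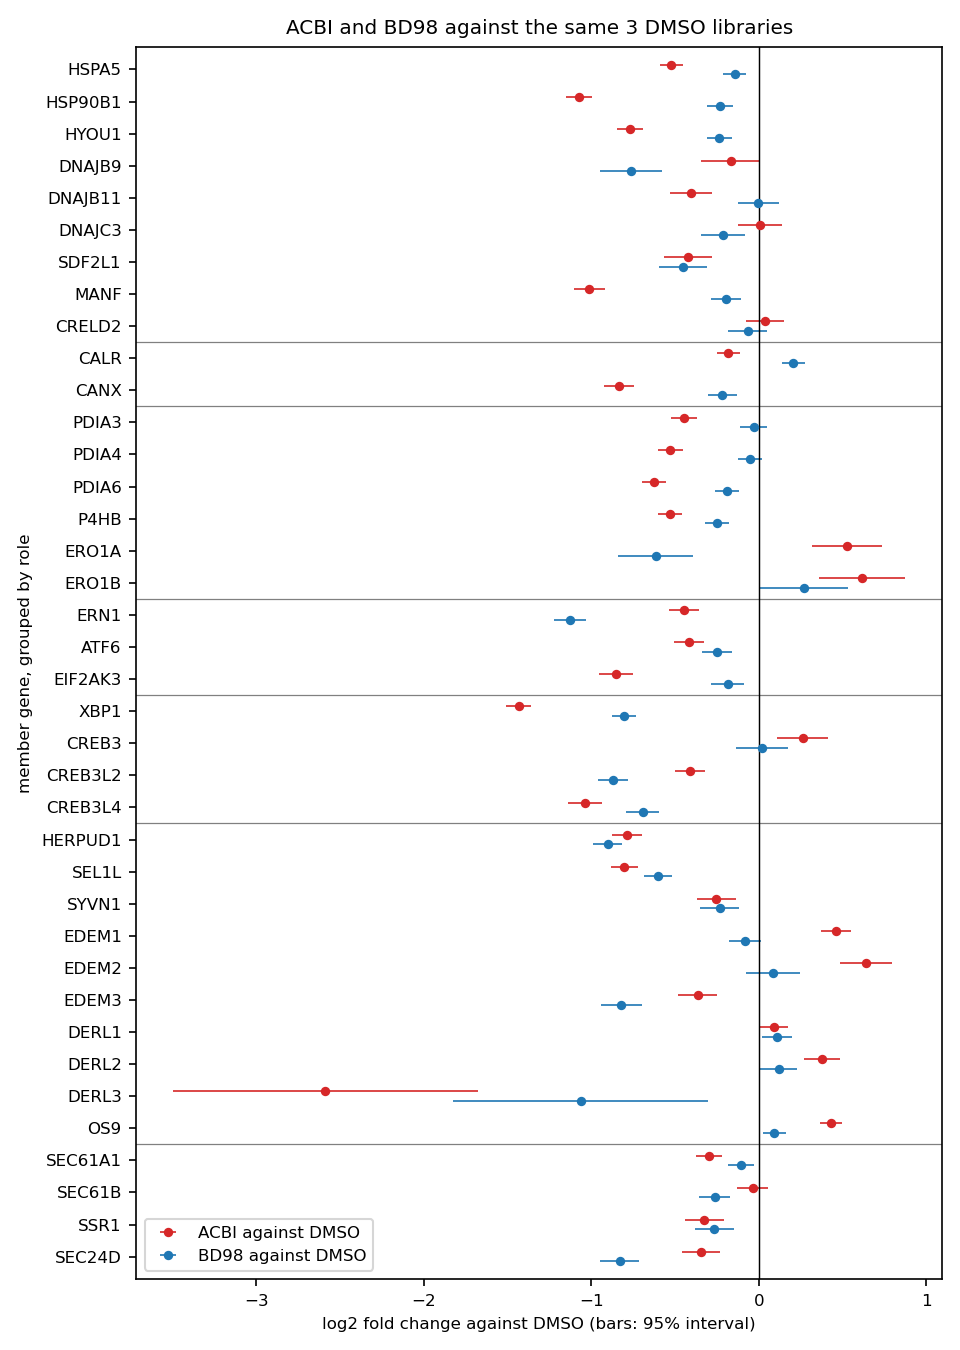
Log2 difference from DMSO (x axis) with ACBI (red) and with BD98 (blue) for the 38 genes (rows, by role); points are estimates over 3 and 3 libraries, bars are 95% intervals, and both share the DMSO libraries. The red point lies to the right of the blue one for ERO1A and ERN1 (ACBI minus BD98 1.14 and 0.68), and to the left for HSP90B1 and MANF (-0.84 and -0.82).

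P-16 and ENZA were both given at 10 µM and could be compared at a matched dose. With P-16, 14 of the 38 genes were higher and 4 lower (47.4%, where 21.4% of all genes were called, 11% higher and 10.3% lower). ERO1A was at 50.8, 44.3 and 43.4 CPM with P-16 against 26.6, 29.8 and 30.6 with ENZA (log2 0.67 ± 0.1, adjusted p = 9.2e-05). ERN1 was at 71.7, 73.2 and 74.5 against 53.7, 54.3 and 53.4 CPM (0.44 ± 0.045, 1.13e-08), and HERPUD1 at 172, 169 and 158 against 131, 132 and 130.4 CPM (0.34 ± 0.042, 4.16e-07). In all 3 genes every P-16 library was above every ENZA library. The XBP1 difference was 0.28 ± 0.035, and 5 of 9 chaperones were higher too, MANF (0.31), SDF2L1 (0.31), HYOU1 (0.27), CRELD2 (0.15) and HSPA5 (0.14). Lower with P-16 were EIF2AK3 (-0.15 ± 0.046), CALR (-0.15 ± 0.034), OS9 (-0.15 ± 0.032) and PDIA3 (-0.11).

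CREB3L4 (0.11, 95% interval 0.01 to 0.21), EDEM3 (0.06, -0.06 to 0.18) and SEL1L (0.07, -0.01 to 0.15) did not pass between P-16 and ENZA. The 4 lower calls were 2 without P-16 replicate 3 or without ENZA replicate 2, and with library totals the share of higher calls among all genes called moved from 51.6% to 41.5%. The EIF2AK3 call was lost without P-16 replicate 1 (adjusted p = 0.051), without P-16 replicate 3 (0.0692) and without ENZA replicate 2 (0.0578). SEL1L passed only in a fit of those groups alone (adjusted p = 0.0327). The calls of 4 more genes were lost and 3 were gained in some settings. ATF6 (-0.12) passed with library totals (adjusted p = 0.0426), with the stricter filter (0.0491), in the fit of only those groups (0.0181), without ACBI replicate 1 (0.0486) and without ACBI replicate 3 (0.0374). EDEM1 (0.10) passed without ENZA replicate 3 (adjusted p = 0.0156), and SSR1 (0.11) in the fit of only those groups (adjusted p = 0.00419). CRELD2 was lost with library totals (adjusted p = 0.125), without the filter (0.0621), without DMSO replicate 3 (0.0521), without 2-77 replicate 2 (0.0511), without ACBI replicate 2 (0.0533), without P-16 replicate 1 (0.0863), without P-16 replicate 2 (0.115), without P-16 replicate 3 (0.0996), without ENZA replicate 2 (0.193) and without ENZA replicate 3 (0.123). PDIA3 was lost with RLE factors (adjusted p = 0.0684), without the filter (0.053), with the replicate block (0.0549), without DMSO replicate 1 (0.0549), without DMSO replicate 2 (0.0576), without DMSO replicate 3 (0.0596), without 2-77 replicate 1 (0.0615), without 2-77 replicate 2 (0.0578), without ACBI replicate 2 (0.053), without BD98 replicate 2 (0.0519), without P-16 replicate 2 (0.226), without P-16 replicate 3 (0.0887), without ENZA replicate 2 (0.097) and without ENZA replicate 3 (0.24). P4HB (0.10) was lost with library totals (adjusted p = 0.188), without the filter (0.0524), without P-16 replicate 1 (0.0574), without P-16 replicate 2 (0.0847), without P-16 replicate 3 (0.0933), without ENZA replicate 1 (0.129) and without ENZA replicate 2 (0.0844). CREB3L2 (0.16) was lost with library totals (adjusted p = 0.0588), without P-16 replicate 1 (0.0553) and without ENZA replicate 2 (0.0711).

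2-77 at 1 µM and ENZA at 10 µM gave few differences among the 38 genes, 1 higher and 3 lower with 2-77 (10.5%, where 5.54% of all genes were called, 2.94% higher and 2.6% lower). ERO1A was higher with 2-77, at 47, 51.2 and 55.9 against 26.6, 29.8 and 30.6 CPM with ENZA (0.82 ± 0.099, 1.77-fold, adjusted p = 2.18e-05), with no overlap. CRELD2 (-0.22 ± 0.055, 0.0116), CREB3L4 (-0.19 ± 0.05, 0.0196) and HSP90B1 (-0.14 ± 0.038, 0.021) were lower. The CRELD2 call was lost without 2-77 replicate 3 (adjusted p = 0.0673) and without ENZA replicate 1 (0.0942), that of CREB3L4 with library totals (adjusted p = 0.0725), without 2-77 replicate 1 (0.0712), without 2-77 replicate 3 (0.051) and without ENZA replicate 1 (0.116), and that of HSP90B1 without 2-77 replicate 2 (adjusted p = 0.115), without ENZA replicate 2 (0.0579) and without ENZA replicate 3 (0.126). The count of lower genes was 6 with DESeq2 and 5 with RLE factors, 7 without ACBI replicate 3, 5 without ACBI replicate 1 and 1 without ENZA replicate 1, and 2 genes were higher without ACBI replicate 3. CANX (-0.14) passed with DESeq2 (adjusted p = 0.0263), with RLE factors (0.0458), without ribosomal RNA genes (0.0424), without DMSO replicate 2 (0.0499), without 2-77 replicate 3 (0.00265), without ACBI replicate 1 (0.0306), without ACBI replicate 3 (0.0231) and without BD98 replicate 3 (0.0494). OS9 (-0.10) passed with DESeq2 (adjusted p = 0.00829), with RLE factors (0.0472), with the stricter filter (0.0478) and without ACBI replicate 3 (0.0352), and PDIA6 (-0.11) with DESeq2 (adjusted p = 0.017), in the fit of only those groups (0.0499), without ACBI replicate 1 (0.0483) and without ACBI replicate 3 (0.0349). SEL1L (-0.11) passed without 2-77 replicate 3 (adjusted p = 0.00931) and without ACBI replicate 3 (0.0449), and ERN1 (0.14), on the higher side, without ACBI replicate 3 (adjusted p = 0.0359). Of all genes tested, the 855 called were 499 without 2-77 replicate 1, 560 without 2-77 replicate 2 and 555 without ENZA replicate 1. HSPA5 (0.01, 95% interval -0.05 to 0.08), XBP1 (-0.03, -0.10 to 0.04) and EDEM3 (0.02, -0.10 to 0.14) did not pass. A difference that did not pass does not show that the compounds act alike, and the doses differ.

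**Figure D5:**
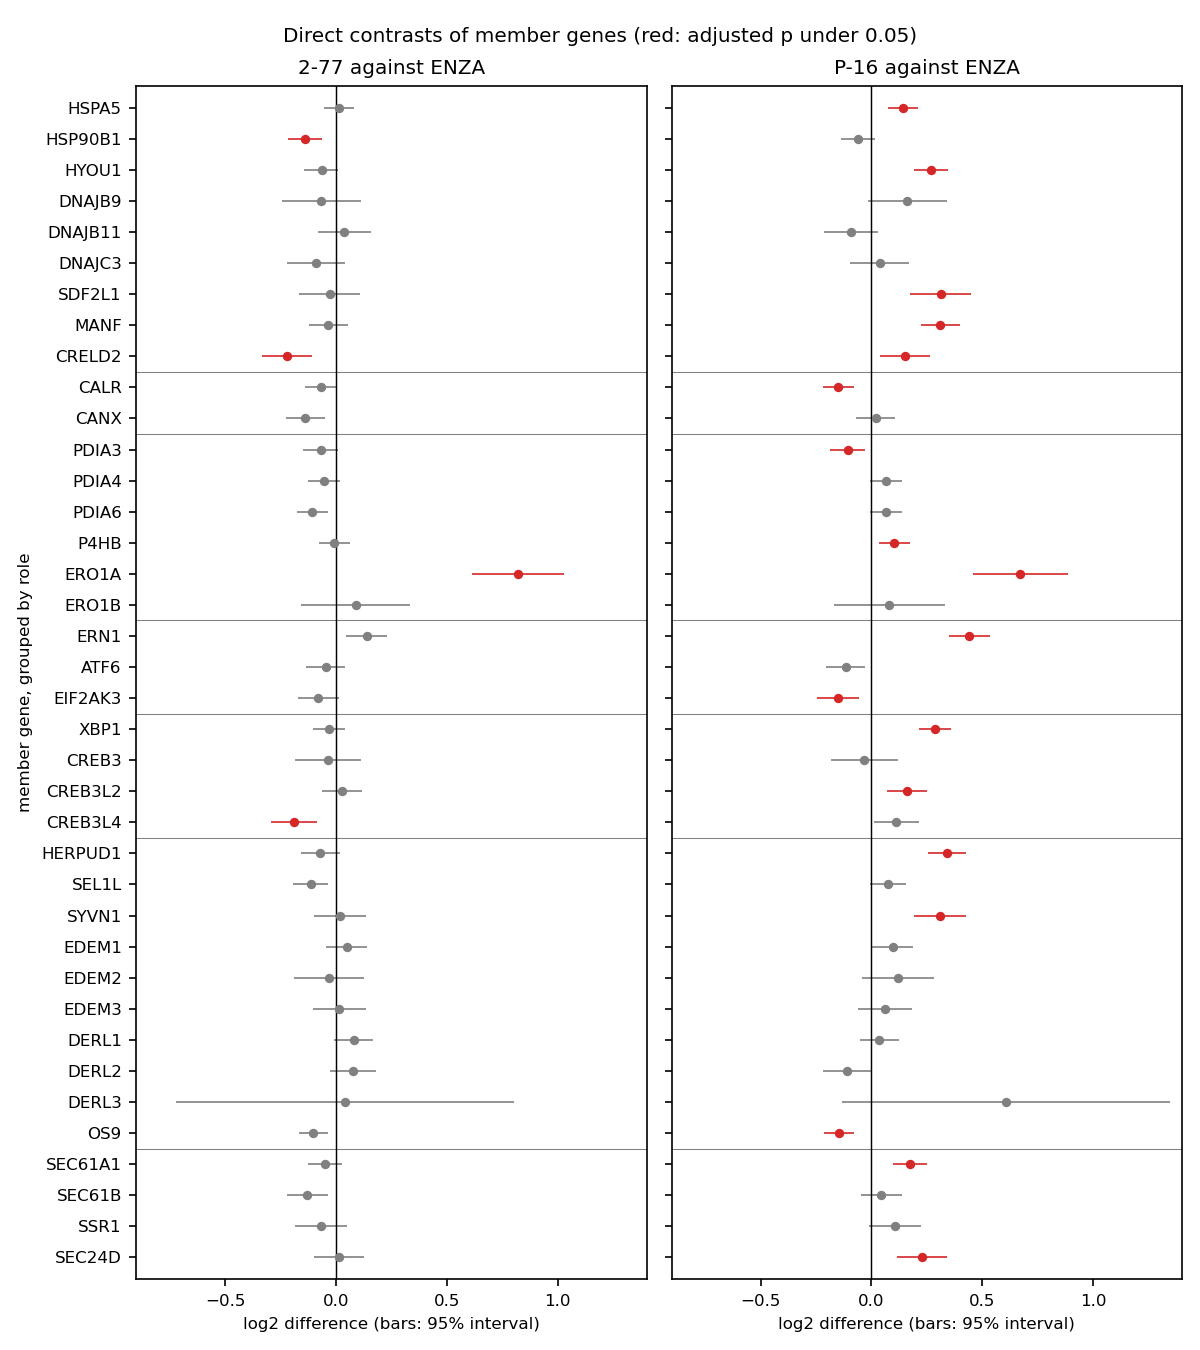
Log2 differences between 2-77 and ENZA and between P-16 and ENZA for the 38 genes, ordered by role; points are estimates, bars are 95% intervals and red marks an adjusted p under 0.05. ERO1A is the highest in both (0.82 and 0.67), and both share the ENZA libraries.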

How the data were processed

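Polyadenylated RNA of LNCaP cells was sequenced in 18 libraries, with 3 per condition. Per the labels the library kit keeps the strand. The values deposited by the authors are expected counts, that is estimated numbers of reads, given with decimals and not adjusted for depth, for 20145 genes. Per the submitters' processing notes the tools included DESeq2, Partek and STAR and the genome build was hg38. Their versions, the read counter, its strand setting and its annotation are not given in the sources used here. Besides the overlaps named with the genes, opposite-strand genes overlap PDIA6 (ATP6V1C2, 1720 bases), PDIA3 (ELL3, 657), CREB3 (GBA2, 134) and SYVN1 (MRPL49, 93). The gene coordinates in the deposited table were used as given, with the base before the listed stop as the end. Columns were matched to samples by name. SCO277 in a column name was read as 2-77 and PB_16 as P-16, and 0 sample columns stayed out.

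The counts were rounded and tested in R 4.3.3 with edgeR 4.0.16. filterByExpr took out 4723 genes and left 15422. TMM factors scaled the library sizes. One robust quasi-likelihood fit held all 18 libraries (12 residual degrees of freedom), and its two-sided F test was applied to 5 contrasts against DMSO and 3 direct contrasts. Benjamini-Hochberg adjustment ran over all genes tested, and calls needed an adjusted p under 0.05. Variation between libraries of a condition beyond counting noise was 0.0573 as a common coefficient, and whether it is biological is not given in the labels. The SE was taken as the size of the log2 difference over the square root of the F statistic. Intervals are 95% intervals from that SE under a t distribution, and the floor for a gene at 0 was 3 counts over the group. The script was tested on simulated counts. Replicates of a condition differed by more than sampling noise, with a chi-square per degree of freedom of at least 2.1 in every pair. The largest values, 121 and 102, were those of ACBI replicate 3 with ACBI replicates 1 and 2. The next was 13.5, between 2-77 replicates 2 and 3.

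The members and lists were chosen with earlier results of these data known, and no test across the 38 genes was made. Every member is named. Of the luminal markers 1 is not reported here and is not in their sum. By rule, values in each library are given for HSPA5, HSP90B1, XBP1, HERPUD1, ERN1, ATF6, EIF2AK3, CREB3L4, CALR and SEL1L. The same holds, in each contrast with DMSO, for the 3 largest rises and 3 largest falls with an adjusted p under 0.05 and no overlap of libraries. The other ER lists name the 2 largest changes each way with ACBI, the contrast with most calls. The PERK and ATF4 branch is given by its counts and medians only, with no gene named. Exon lengths came from GENCODE v29 and promoters from RefSeq tables on GRCh38.p14, and figures were drawn with matplotlib 3.10.9.

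Alternatives were DESeq2 1.42.0, RLE factors, library totals, no filter and a stricter filter on low counts, a fit restricted to the compared groups, a replicate block, a table without the 19 ribosomal RNA genes, and each library left out. The labels state no pairing of libraries by replicate number. Among 45 pairs that share a number across conditions, the deviations from the group means correlated above 0.1 in 1, at a median of -0.00109. That pair was 2-77 replicate 3 with ACBI replicate 3, at 0.193. Whether libraries that share a number came from one culture or batch is not given in the labels, and low correlations do not settle it.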

Additional observations from a re-analysis of the deposited data

How the results depend on the processing

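No difference of the 304 computed for the 38 genes (8 contrasts) changed sign with its call under any alternative. Of the 185 called, 168 stayed called in every alternative that kept all libraries, and 153 also when any library was left out. Counts of members moved by more than 1.5 times in these cases. With library totals 5 members rose with BD98 (3 with TMM factors), and in a fit of only the groups compared 5 rose with P-16 (3 in the fit of all groups). Between 2-77 and ENZA, 6 were lower with DESeq2 and 5 with RLE factors (3 with edgeR and TMM factors). With each library left out in turn, members that rose numbered 3 to 6 with 2-77, 1 to 3 with BD98, 2 to 5 with P-16, 2 to 5 with ENZA and 7 to 8 with ACBI. Those that fell numbered 22 to 25, 25 to 26, 9 to 13, 17 to 19 and 26 to 27 in that order. Between 2-77 and ENZA, 1 to 2 were higher, 1 to 7 lower and 499 to 1180.0 of all genes were called. Between P-16 and ENZA, 11 to 14 were higher and 2 to 5 lower, and between ACBI and BD98 14 to 16 and 17 to 18. The cause of these shifts was not tested. In the fit with the replicate block, 2 calls of the 38 genes were lost, ERO1B with ENZA against DMSO (adjusted p = 0.0546) and PDIA3 between P-16 and ENZA (0.0549), so that 4 members rose with ENZA in place of 5 and 3 were lower with P-16 in place of 4. The block changed no other call of the members, and the numbers are shared without a stated pairing. Depth limits DERL3, with 3 to 30 counts in a library.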
